A study of Drosophila melanogaster with 10 samples.

Results

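Long lamina-associated domains (LADs) of late Drosophila melanogaster embryos, those of 15 kb or more on the large autosomal arms 2L, 2R, 3L and 3R, were selected on the deposited Lamin (Lam) domains. The deposited Lam domains numbered 15662 on all chromosomes. Those separated by gaps of up to 900 bp were merged, which gave 3676 merged LADs on the 4 arms, and the 1157 of them that reached 15000 bp were taken. Chromosome 4, X and the heterochromatic scaffolds were left out. Since the Lam calls chose these LADs, their number, length and internal breaks are a description without a test, whereas the Elys domains and the gene expression values were not used in the choice. All positions are those of the dm3 genome build.

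The study compared the genome contacts of Elys, a nucleoporin, and of Lam by DamID-seq in embryos and followed gene expression after Elys depletion in cultured cells. Embryos aged 16 to 18 h were the F1 of nos-Cre flies and flies with a pUAST-attB construct (hsp70-loxP-stop-loxP) for Dam-Elys, Dam-Lamin or, as the control, Dam alone, with 2 biological replicates of each. Cre removed the stop cassette in early embryos, so that a basal hsp70 promoter drove the methylase or its fusion in a mixture of all cell types of many pooled embryos. S2 cells, an embryonic cell line with hemocyte features, were treated with Elys dsRNA (Elys-KD) or, as the control, LacZ dsRNA, for 3 days with another 2 days after that, and poly(A)+ RNA was sequenced in 2 biological replicates of each.

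The nuclear lamina is a meshwork of lamins under the inner nuclear membrane, and LADs are the stretches of chromatin that touch it, which are mostly poor in active genes. Nuclear pore complexes interrupt the lamina. Elys is best known for binding chromatin at the end of mitosis, where it starts the assembly of new pores, and several nucleoporins also bind chromatin away from the pores. DamID marks the contacts of a protein through a tethered Dam methylase, which methylates adenine in nearby GATC sites, and unfused Dam gives the background that is divided out.

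Long LADs made up 31.5% of the merged LADs by number and 71.1% by length. Arm 3R held 362 of them, 3L held 297, 2L held 256 and 2R held 242. Together they spanned 36.2 Mb, or 37.6% of the length between the first and the last domain of each arm. The cover was 40.5% on 3R, 38.3% on 2R, 37.3% on 3L and 33.6% on 2L. The median length was 26.1 kb with quartiles of 19.5 and 37.2 kb, and the 4 arms differed little, with medians between 25.5 and 27.0 kb. The classes of 15 to under 20 kb, 20 to under 30 kb, 30 to under 50 kb and 50 kb or more held 317, 380, 312 and 148 LADs. Only 6 LADs reached 100 kb. At the threshold itself, 24 merged LADs measured exactly 15000 bp and 22 measured 14700 bp, 1 bin less. Elys domains covered 46.8% of the length of those at 15000 bp and 39.1% of those at 14700 bp.

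The longest LAD of all, on arm 3R from 27243901 to 27397200, measured 153.3 kb. It was put together from 22 Lam domains, the longest of 18.9 kb, and Elys domains covered 26.03% of it. The next on 3R measured 110.7 kb (3180901 to 3291600) and 97.8 kb (18724201 to 18822000). On 3L the 3 longest measured 116.4 kb (3639601 to 3756000), 112.5 kb (2639101 to 2751600) and 92.7 kb (5459701 to 5552400). The first of these had only 5 breaks and an Elys cover of 16.5%, whereas the other 2 had 12 and 17 breaks and were covered to 38.4% and 38.2%. On 2R, 2 LADs measured 107.7 kb each (11290501 to 11398200 and 12285901 to 12393600), followed by one of 96.9 kb (6206401 to 6303300). On 2L the longest measured 87.6 kb (7641601 to 7729200), 78.0 kb (1278301 to 1356300) and 75.0 kb (2586301 to 2661300), with an Elys cover of 41.8%, 20.8% and 10.0%. LADs of nearly equal length thus carried Elys over very different shares of it.

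Most long LADs were not continuous stretches of Lam signal. They contained 4647 breaks, that is gaps of 300 to 900 bp between Lam domains, or 1.28 per 10 kb, and the rate lay between 1.23 and 1.37 per 10 kb on the 4 arms. Breaks were narrow: 65.6% spanned a single 300-bp bin, 23.0% spanned 600 bp and 11.4% spanned 900 bp, and together they took 5.61% of the length. A long LAD had a median of 3 breaks with quartiles of 1 and 6. No break at all was present in 153 LADs, or 13.2%, and 91 LADs had 10 or more. The most broken LAD lay on 2R from 7928101 to 8017500 and had 22 breaks in 89.4 kb, which took 13.4% of its length. The longest unbroken one, on 3R from 11325001 to 11403600, measured 78.6 kb. The merging of narrow gaps mattered for the definition, because 545 of the 1157 LADs held no single deposited Lam domain of 15 kb. The rate of breaks was 1.45 per 10 kb in LADs of 15 to under 20 kb and 1.20 in those of 50 kb or more, against 1.42 in merged LADs under 15 kb.

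Breaks were spread along the LAD from edge to centre. Breaks cannot lie in the outermost bin, which is Lam-called by definition. They took 11.3% of the second bin from the edge and 10.2% of the third, then 5.51% of the length between 1.5 and 3 kb and 5.39% between 15 and 30 kb. Over 10 equal parts of the length, the share in breaks lay between 4.67% and 6.67%.

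Neighbouring long LADs often lay close together. A median gap of 20.7 kb separated consecutive long LADs, with quartiles of 6.0 and 63.3 kb, and 380 of 1153 gaps (33.0%) measured at most 10 kb. Thus 54.5% of the long LADs had another long LAD within 10 kb, between 47.7% on 2L and 58.2% on 3L. The other 527 stood alone at this distance. The 630 close ones formed 250 runs, of which 163 held 2 LADs, 59 held 3 and 21 held 4. The largest run, of 9 LADs, spanned 312.9 kb on 3L (1942501 to 2255400) with long LADs over 89.6% of its length. Next came 2 runs of 7 LADs, one over 315.3 kb on 2R (4170001 to 4485300) and one over 263.4 kb on 2L (15851101 to 16114500). Elys covered 17.5%, 28.3% and 23.0% of the LADs of these 3 runs. In contrast, a run of 5 on 2R (15667501 to 15845100) was covered by Elys to 62.7%.

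**Figure D1:**
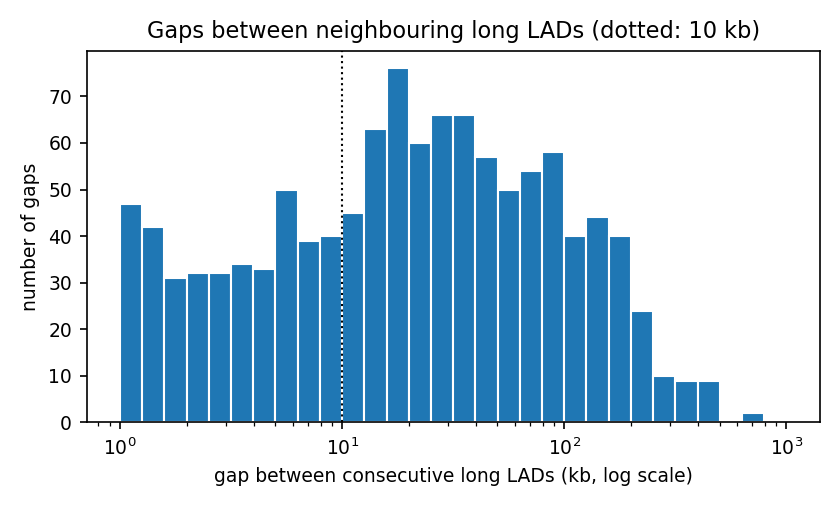
Histogram of the 1153 gaps between consecutive long LADs of an arm, in kb on a log scale, with the number of gaps on the vertical axis. The dotted line marks 10 kb, and 33.0% of the gaps lie at or to the left of it.

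In windows of 500 kb along the arms, long LADs took a median of 39.1% of the length and from 3.66% to 76.6%. None of the 191 windows was free of them. The fullest window lay on 3R from 3000001 to 3500000 and held 8 starts of long LADs. With each arm cut into 5 equal parts, the cover was lowest in the last part of 2L (16.6%) and highest in the last part of 3R (54.9%). Gaps of up to 3 kb between long LADs held almost no smaller LADs, which took 0.0897% of their length, whereas gaps of over 10 up to 30 kb were filled by them to 40.3%. Elys domains covered 37.0% of the gaps of up to 3 kb and 37.1% of those of over 3 up to 10 kb, against 53.3% of those of over 100 kb. The narrow spaces within a run therefore had an Elys cover near that of the long LADs and below that of the wide spaces between runs.

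Elys domains covered 35.6% of the length of long LADs, against 44.6% of merged LADs under 15 kb and 53.2% of the rest of the arms. On all 4 arms the order was the same. On 2L the values were 31.7% in long LADs, 40.8% in shorter ones and 49.8% in the rest, and on 2R they were 39.4%, 48.0% and 52.7%. On 3L they were 35.9%, 43.4% and 51.4%, and on 3R they were 35.4%, 46.9% and 58.6%. The long LADs were below the shorter ones by 7.55 to 11.5 percentage points and below the rest by 13.3 to 23.2 points. The deposited domains come from merged replicates, so no replicate error and no test can be given, and the spread over 4 arms is not a biological error. The Lam and Elys calls were both made against the same Dam libraries, and the part this plays in their overlap was not tested. Dam-Lam DNA was amplified with 16 PCR cycles, and Dam and Dam-Elys DNA with 18. The effect of this difference was not tested.

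**Figure D2:**
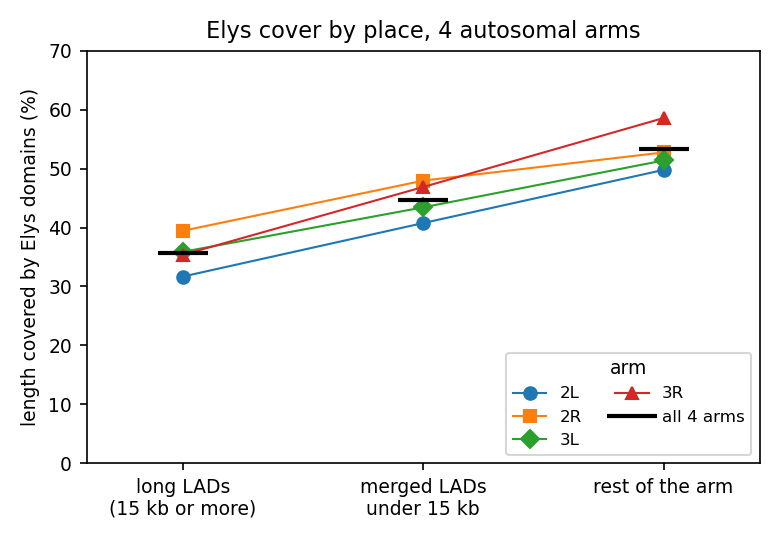
Percent of the length covered by Elys domains in long LADs, in merged LADs under 15 kb and in the rest of the arm, with 1 line per arm and black bars for the 4 arms together. On each arm the long LADs have the lowest cover, between 31.7% and 39.4%.

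The Elys cover was lower in longer LADs. It was 58.7% in merged LADs of under 3 kb, 46.8% from 3 to under 9 kb and 40.5% from 9 to under 15 kb. Among long LADs it was 38.6% from 15 to under 20 kb, 38.4% from 20 to under 30 kb, 34.8% from 30 to under 50 kb and 32.3% at 50 kb or more. The ranges of the 4 arms overlapped between these long classes, from 33.1% to 44.8% in the shortest and from 26.9% to 37.1% in the longest.

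Single LADs varied far more than the classes. The Elys cover of a long LAD had a median of 33.3%, quartiles of 20.4% and 51.0%, and reached from 0 to 100%. Elys covered at least 50% of the length in 305 LADs, or 26.4%, and at least 80% in 63, of which 5 were covered throughout. No Elys bin was present in 32 LADs, or 2.77%. Among LADs of 30 kb or more, the highest cover was 92.6% in a LAD of 36.3 kb on 3R (22047301 to 22083600). Elys was absent from 5 LADs of that size, the longest of which measured 87.9 kb (2R, 1332001 to 1419900) and consisted of 9 Lam domains. The others lay on 2R (1064401 to 1105200), 3L (19504201 to 19541100 and 23859001 to 23889600) and 3R (13228801 to 13277700). Of the 32 LADs without Elys, 7 had their midpoint in the first of the 5 parts of 2R and 7 in the last of 3L, the parts next to the centromere, and every other part of an arm held at most 3. The other parts next to a centromere held 1 (the last of 2L) and 0 (the first of 3R). Elys was also low over whole windows of 500 kb there, LADs or not, with 7.44% of the window at 1000001 to 1500000 of 2R and 7.14% to 9.30% of the 3 windows from 23000001 to 24500000 of 3L.

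**Figure D3:**
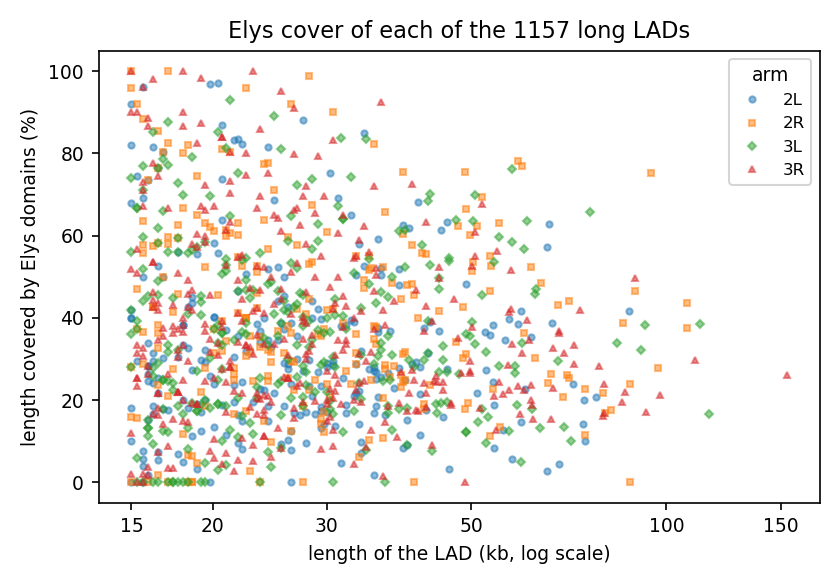
Percent of the length covered by Elys domains against LAD length in kb (log scale) for each of the 1157 long LADs, with 1 point per LAD and a symbol for each arm. The points spread from 0 to 100% among the shorter LADs, and LADs without Elys lie at the bottom.

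Within long LADs, Elys was found in many short domains. A long LAD touched a median of 4 Elys domains, with quartiles of 3 and 7 and a maximum of 23. With each Elys domain placed by its middle bin, 5396 lay in long LADs, or 14.9 per 100 kb, with a median length of 1500 bp and quartiles of 600 and 2700 bp. Merged LADs under 15 kb held 2694, or 18.3 per 100 kb, with a median length of 1200 bp and quartiles of 600 and 2700 bp. Many short Elys domains were thus not particular to long LADs. By comparison, 6147 lay outside every merged LAD, or 13.5 per 100 kb, with a median length of 2100 bp and quartiles of 600 and 5100 bp. Elys domains that lay partly inside a long LAD numbered 702, with a median of 4.5 kb. Between the Elys domains, the longest stretch without Elys measured 9.9 kb in the median LAD, with quartiles of 6.6 and 14.4 kb.

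Elys cover was highest at the edge and lower within a few kb of it. The outermost 300-bp bin of long LADs lay in an Elys domain at 52.0% of the 2314 edges, between 48.5% and 56.1% on the 4 arms. The cover was 44.6% over the outermost 1.5 kb, 39.1% from 1.5 to 3 kb and 36.2% from 3 to 4.5 kb. Farther inside it changed little, with 35.9% from 4.5 to 6 kb and 37.1% from 6 to 7.5 kb. It was 34.1% between 7.5 and 15 kb and 32.0% between 15 and 30 kb. Only LADs of 30 kb or more reach 15 kb from an edge, so these steps do not rest on the same LADs. In LADs of 30 to under 50 kb the last 2 steps had 33.1% and 33.5%, and in those of 50 kb or more 32.7% and 31.2%. The outermost 3 kb at both sides had an Elys cover of 41.9%, against 33.4% in the middle part of each LAD, the central of 3 equal parts, a difference of 8.44 percentage points. It was positive on each arm, with 5.88 points on 2L, 8.37 on 2R, 9.32 on 3R and 9.91 on 3L. Over 10 equal parts of the length, the first and the last had a cover of 41.6% and 40.3%, and the 8 between them lay between 32.9% and 35.2%.

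Directly outside the edge the cover was lower than directly inside. The first bin outside lay in an Elys domain at 34.6% of edges, and the cover reached 45.1% between 1.5 and 1.8 kb outside and 48.3% between 5.7 and 6 kb outside. Only bins outside every merged LAD were counted. They numbered 2314 in the first bin, 1793 between 1.5 and 1.8 kb and 785 between 5.7 and 6 kb. The rise outside is thus not over a fixed set of edges. An Elys domain ran across 31.4% of the edges, reached the edge from inside and stopped there at 20.6%, and did so from outside at 3.20%. Neither of the 2 adjoining bins lay in an Elys domain at 44.8%. Elys domains thus ended at the edge from inside at more edges than from outside. Elys was present in the outermost bin of both edges in 323 LADs, of 1 edge in 557 and of neither in 277. Edges that faced another long LAD within 10 kb had Elys over 38.7% of their outermost 3 kb, and the other edges over 43.4%.

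The difference between edge and centre was present in each class of length. It amounted to 5.10 percentage points in LADs of 15 to under 20 kb, where 42.4% of the outermost 3 kb and 37.3% of the middle part were covered. In LADs of 20 to under 30 kb it was 8.42 points and in those of 30 to under 50 kb 6.59 points. In LADs of 50 kb or more it was 10.2 points, with 39.6% of the outermost 3 kb and 29.4% of the middle part. The outermost bin itself was covered at 42.2% of the edges of these longest LADs, against 53.6% in those of 15 to under 20 kb.

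**Figure D4:**
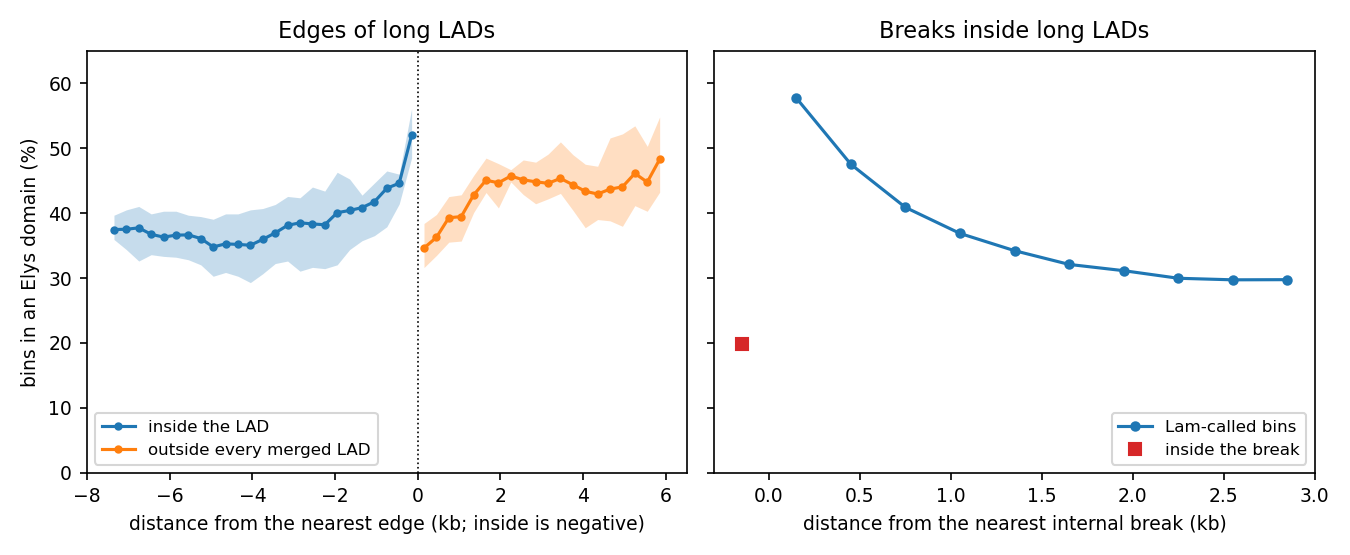
Percent of 300-bp bins in an Elys domain by distance in kb from the nearest edge of a long LAD (left; inside is negative, shading is the range of the 4 arms) and from the nearest internal break (right; the red square is the break itself). The cover peaks at 52.0% in the outermost bin inside and at 57.7% beside breaks, and is 34.6% in the first bin outside and 19.8% within breaks.

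The bins around breaks resembled those around edges, with less Elys in the break and more beside it. Elys domains covered 19.8% of the length of breaks, against 36.6% of the Lam-called length in the same LADs, and this order held on each arm, with 18.1% to 21.6% in breaks and 32.4% to 40.4% in Lam-called bins. Directly beside a break, 57.7% of the Lam-called bins lay in an Elys domain. The share was 47.5% in the second bin, 34.2% in the fifth and 29.7% in the last bin within 3 kb. In 32.0% of the breaks, both bins beside the break lay in Elys domains and no bin of the break did. This held for 37.1% of the breaks of 300 bp, 24.98% of those of 600 bp and 16.9% of those of 900 bp. In 29.7% of the breaks, Elys was absent from the break and from both bins beside it. Elys was present in a break and absent from both bins beside it in only 0.108%.

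Conversely, gaps of 1 bin between Elys domains inside long LADs numbered 1731, and 1502 of them (86.8%) lay on a break between Lam domains. Among bins inside Lam domains, away from their ends, such a gap between Elys bins was seen in 0.181% of 103687. The 1-bin gaps between Elys domains thus mostly fell on breaks between Lam domains. The reverse did not hold, since 32.0% of the breaks had Elys in both adjoining bins and none inside. The Dam libraries are the denominator of both profiles, so a call lost in both through Dam and a lack of contact with both proteins cannot be told apart in the deposited domains. The files list called bins only, so a bin with few usable reads looks like a bin below the call, and the read coverage and GATC sites of these bins were not tested. The widest breaks, of 900 bp, more often held some Elys (49.7%) than those of 300 bp (14.9%), which offer a single bin for it.

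For the first 16.5 Mb of arm 2L, gene positions could be set beside the LADs, with 1998 genes and 196 whole long LADs. The start sites of 522 genes lay in long LADs, or 8.72 per 100 kb, against 8.49 in merged LADs under 15 kb and 15.8 in the rest of the stretch. A long LAD held a median of 2 gene starts and at most 16, and 45 of the 196 held none. In S2 control cells, 87.7% of the genes that start in long LADs had under 1 TPM (transcripts scaled for length and to a fixed sum per library), against 83.0% of those in shorter LADs and 25.8% of those outside. The median was 0.0139 TPM in long LADs and 19.8 TPM outside. These LADs were mapped in embryos, and LADs of S2 cells were not analysed here.

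Start sites had a similar density from edge to centre, with 8.93 per 100 kb in the outermost 3 kb, 9.18 from 3 to 6 kb and 8.002 in the middle part. A gene start lay in 24 of 774 breaks. Per 100 kb, gene starts numbered 7.31 in breaks, against 8.80 in the Lam-called bins of the same LADs. Directly outside, within 3 kb of a long LAD, gene starts numbered 10.3 per 100 kb, and 47.3% of them belonged to genes under 1 TPM in control cells, against 90.5% in the outermost 3 kb inside. Of the gene starts in long LADs, 32.2% lay in an Elys domain, near the 31.7% of the length of long LADs that Elys covered on 2L, and of the starts outside every LAD 63.7% did.

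Several gene families of this stretch were counted by place. Of all 1998 genes of the stretch, 26.1% started in long LADs, 11.2% in shorter ones and 62.7% outside. Members of a family may be close neighbours, such as Gr22a to Gr22e, so their placements are not independent. Of 12 gustatory receptor genes (Gr), 7 started in long LADs and 4 in shorter ones. Of 10 odorant receptor genes (Or), 6 and 3 did. Of 14 seminal fluid protein genes (Sfp), 9 started in long LADs, and all 9 were listed at 0 TPM in control cells. The 3 beat genes (beat-Ia, beat-Ib and beat-Ic), which encode surface proteins of neurons, all started in long LADs. So did 2 of 5 cuticle protein genes (Cpr), 2 of 6 accessory gland protein genes (Acp), 1 of 2 odorant-binding protein genes (Obp), 0 of 3 ionotropic receptor genes (Ir) and 0 of 3 dpr genes, which encode surface proteins of neurons. None of the 15 cytoplasmic ribosomal protein genes (RpL and RpS) and none of the 10 mitochondrial ones (mRpL and mRpS) did so. Of 16 developmental regulators, 14 started outside every merged LAD and only Wnt10, a secreted Wnt ligand, and nub, a POU-domain transcription factor, started in long ones. The start of nub lay only 0.17 kb from the edge of its LAD, less than a 300-bp bin. These counts describe the placement, since the table of positions is not the whole genome.

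Of the 10 Nimrod genes of the stretch, which encode EGF-repeat receptors and secreted proteins of hemocytes, 8 shared a single long LAD, 1 started in another and NimC3 started outside every merged LAD, in an Elys domain. NimA, NimB1 to NimB5, NimC1 and NimC2 all started in the LAD of 66.6 kb at 13920601 to 13987200, and so did He, the hemocyte surface gene Hemese. Elys covered 38.7% of this LAD. The start sites of 7 of these 8 Nimrod genes and of He lay in Elys domains, and only that of NimA did not. The LAD touched 8 Elys domains, so neighbouring starts can share a domain and are not separate cases. NimC4, a phagocytic receptor, started in a LAD of 16.2 kb nearby (14035801 to 14052000), whose Elys cover was 81.5%. NimC4 had 11.27 and 10.95 TPM in Elys-KD cells, against 13.3 and 12.9 TPM in control cells. NimB3 had 2.01 and 1.91 TPM in Elys-KD cells, against 2.43 and 2.19 TPM in control cells, and the other Nimrod genes of the LAD were under 1 TPM in all 4 libraries.

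In the 3 longest LADs of the stretch, expression differed from one to the next. The LAD of 87.6 kb held 12 gene starts, among them Tep2, which encodes a complement-like thioester protein, with 47.0 and 40.2 TPM in Elys-KD cells, against 31.2 and 32.1 TPM in control cells. The log2 fold change was 0.42 ± 0.06 (SE) with an adjusted p of 0.00581 by edgeR, and the TPM ratio of 1.38 was under the ratio of 1.5 needed for a call. Its neighbour Tep3 was under 0.05 TPM in every library, and so were Slob, a regulator of the potassium channel Slowpoke, and Ntl, a transporter. CG13795 in the same LAD had 80.1 and 80.9 TPM in Elys-KD cells, against 89.5 and 89.4 TPM in control cells. By contrast, the LADs of 78.0 kb and 75.0 kb held 9 gene starts each, and the 8 longest genes of each were under 0.25 TPM in all libraries, including Or23a and the proteasome-like genes Prosbeta4R1 and Prosbeta4R2, which were listed at 0.

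Of the genes that start in these embryonic long LADs, 33 had a mean of at least 10 TPM in control S2 cells. Whether these genes lie in LADs in S2 cells was not analysed. The 6 highest were Aldh, an aldehyde dehydrogenase, Glt, a secreted glycoprotein, Got2, a mitochondrial aminotransferase, gNacalpha, a subunit of the nascent polypeptide-associated complex, borr, the chromosomal passenger protein Borealin, and CG13117. Aldh had 379.9 and 387.1 TPM in Elys-KD cells, against 386.6 and 409.5 TPM in control cells. Of these 6 start sites, 5 lay in an Elys domain, and that of gNacalpha did not. Only CG13117 was called upon Elys-KD.

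Elys-KD lowered Elys itself to 4.96 and 4.55 TPM, against 28.3 and 30.2 TPM in control cells (log2 fold change of -2.67 ± 0.05 (SE), edgeR adjusted p = 1.315e-06). Of the markers of S2 cells, srp, ush, Pxn, Hml and Col4a1 were between 6.14 and 77.6 TPM in every library, and NimC1 was at or near 0. Pxn, a peroxidase of hemocytes, had 10.95 and 9.52 TPM in Elys-KD cells, against 6.57 and 6.14 TPM in control cells, and was the only one of these markers called, and its part in the calls of long LADs was not tested. Of the markers of other cell types, nSyb, Mhc and Lsp2 stayed under 0.2 TPM, and elav was between 2.79 and 3.62 TPM.

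Of the 522 genes that start in long LADs, 123 passed the filter on low counts, and 14 of these were called upon Elys-KD, 11 up and 3 down. A gene was called where the mean TPM differed by a ratio above 1.5 and the adjusted p was below 0.05. The share of tested genes called up was 8.94% in long LADs, against 2.54% of all 9156 tested genes of the genome. For calls down it was 2.44% in long LADs, against 0.644% of all. The number of calls rested on single libraries, with 7 without Elys-KD replicate 1, 10 with Elys-KD replicate 2 left out, and 8 when either control library was left out. Calls up were 5 or 6 in each of these cases, against 11 with all libraries, while calls up of all genes numbered 172 to 236, against 233. Of the 14 genes, 6 to 8 kept their call in each case. DESeq2 called 4 up and 2 down in long LADs, among 159 up and 45 down of all genes. In merged LADs under 15 kb, 5 of 75 tested genes were called up and 0 down, and outside LADs 13 of 1049 were called up and 4 down. The median log2 fold change of tested genes was 0.06 in long LADs and -0.01 outside. The genes of the 3 places differed in level, and comparisons at like levels rest on small counts. At 1 to under 10 TPM in control cells, 5 of 31 tested genes in long LADs were called up. The counts were 1 of 17 in shorter LADs and 2 of 162 outside. Of these 5, CG15423, CG43348 and CG31777 lost the call whichever library was left out. At 10 TPM or more the counts were 2 of 33 in long LADs, 0 of 21 in shorter ones and 2 of 767 outside. Under 1 TPM they were 4 of 59, 4 of 37 and 9 of 120 in the same order, or 6.78%, 10.8% and 7.50%.

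**Figure D5:**
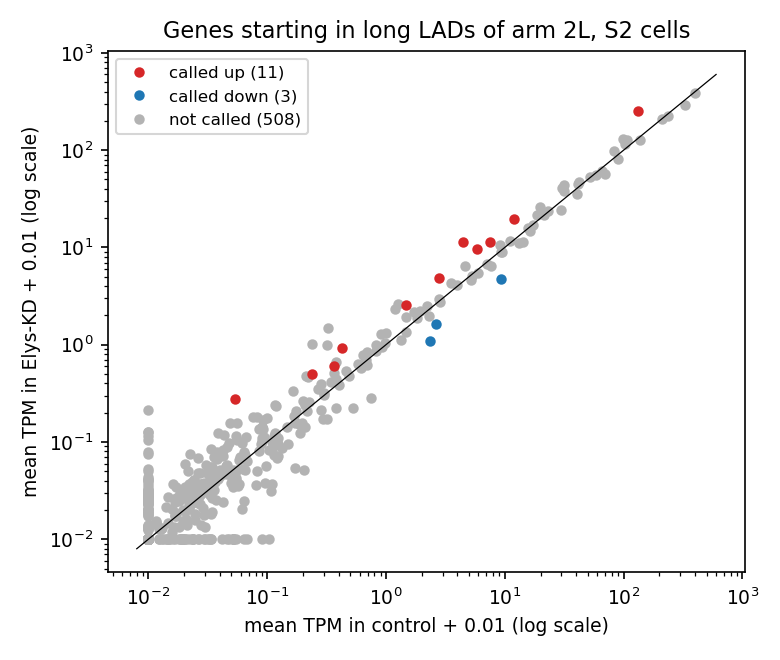
Mean TPM in Elys-KD cells against mean TPM in control S2 cells (both + 0.01, log scales) for the 522 genes that start in long LADs of the first 16.5 Mb of arm 2L, with 1 point per gene and the diagonal marking equal values. The 11 red points are genes called up and the 3 blue ones genes called down, and most genes lie near the lower left corner.

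The 5 largest calls up were CG13243, CG18557, He, CG5397 and CG13117. CG18557 had 11.3 and 11.2 TPM in Elys-KD cells, against 4.48 and 4.49 TPM in control cells, a log2 fold change of 1.31 ± 0.10 (SE) with an adjusted p of 0.000459. CG13117 had 260.3 and 250.3 TPM in Elys-KD cells, against 137.1 and 129.0 TPM in control cells, a log2 fold change of 0.94 ± 0.05 (SE) with an adjusted p of 9.128e-05. Both stayed called when any 1 library was left out. He had 1.03 and 0.818 TPM in Elys-KD cells, against 0.372 and 0.460 TPM in control cells, with a log2 fold change of 1.15 ± 0.32 (SE) and an adjusted p of 0.0496. He lost the call whichever of the 4 libraries was left out, with an adjusted p of up to 0.209. CG5397 had 0.457 and 0.520 TPM in Elys-KD cells, against 0.186 and 0.267 TPM in control cells, and CG13243 had 0.266 and 0.262 TPM in Elys-KD cells, against 0.0131 and 0.0739 TPM in control cells. The estimated counts behind CG13243 were few, with 17 and 17 in Elys-KD cells, against 1 and 5 in control cells. Without control replicate 1 both lost the call, CG13243 also without Elys-KD replicate 1 and CG5397 also without Elys-KD replicate 2, with adjusted p-values of up to 0.101 for CG13243 and 0.116 for CG5397. In each of these 5 genes, both Elys-KD values lay above both control values.

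The other 6 genes called up were CG15423, CG15279, CG43348, Pde1c, CG14273 and CG31777, with log2 fold changes between 0.64 and 0.82. CG15279 and CG14273 stayed called when any 1 library was left out, and the other 4 lost the call in each case. The 3 genes called down were CG13793, CG13794 and NLaz. CG13793 and CG13794 lay in the longest LAD of 2L, and both started in Elys domains. CG13794 had 4.87 and 4.64 TPM in Elys-KD cells, against 9.64 and 9.08 TPM in control cells, and fell by 1.01 ± 0.07 (SE) on the log2 scale (adjusted p = 0.000343). CG13793 had 0.920 and 1.26 TPM in Elys-KD cells, against 2.28 and 2.38 TPM in control cells, and fell by 1.13 ± 0.18 (SE) with an adjusted p of 0.00829. Reads that such neighbours share could be divided between them by the counting. NLaz, the lipocalin Neural Lazarillo, had 1.46 and 1.80 TPM in Elys-KD cells, against 2.69 and 2.61 TPM in control cells, and it stayed called only without Elys-KD replicate 2, with an adjusted p of up to 0.159 otherwise.

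Start sites in Elys domains were found for 4 of the 11 genes called up and for all 3 called down. Among the tested genes of long LADs, 61 started in an Elys domain and 62 did not. The start sites of the called genes lay at a median of 7.72 kb from the nearest edge, against 7.17 kb for all genes that start in long LADs. The called genes are few, and the distance of the tested genes alone was not analysed.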

How the data were processed

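Members and lists were chosen with earlier results of these data known. For DamID-seq, the authors clipped adapters, mapped reads uniquely to dm3 with Bowtie2, counted them with HTSeq in 300-bp bins, merged replicates, scaled them to depth, formed log2 ratios to Dam and called domains with an HMM of 2 states for Lam and 3 for Elys. The deposited domains give positions only, with neither score nor depth, so their precision is unknown. For RNA-seq, the authors deposited Salmon estimated counts per gene and TPM, scaled to the same sum in each library. Estimated counts per library were between 57622326 and 68034643. They were rounded and tested with edgeR 4.0.16 in R 4.3.3 (quasi-likelihood test, TMM, filterByExpr, Benjamini-Hochberg), and DESeq2 1.42.0 was an alternative. P-values measure the spread between 2 replicates a group. The SE given with a log2 fold change was computed from that change and the F statistic of the edgeR test. It is thus not a separate estimate of error. Gene positions on 2L came from the study's gene table, held up to 16.5 Mb, which entered no test. Symbols were matched for 13389 of 13937 genes. Bins, breaks, gaps and covers were computed with Python 3.11.15 and NumPy 2.4.6.

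Named LADs were the 3 longest of each arm, those at 15 kb, the most broken, and those with the highest and lowest Elys cover at 30 kb or more. Of the LADs named for other reasons, the longest unbroken one, the longest without Elys and the runs were chosen after their values were seen. Named genes were the 5 largest calls each way, the 6 highest in control cells, up to 8 in each of the 3 longest LADs, and fixed lists. The RNA-seq test was tried on simulated counts. The merging and the count from edge to centre were checked only on small constructed examples.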

Additional observations from a re-analysis of the deposited data

How the results depend on the processing

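The deposited domains carry no score, depth or replicate, so a setting was compared with the binomial interval at 95% over 300-bp bins or LADs. That interval covers no error beyond counting. It treats bins as independent, although neighbouring bins often share a domain, so over bins it is too narrow even for counting error. Elys cover stayed between 33.7% and 38.4% and the outermost 3 kb stayed above the middle part in every setting tried. With no gap filled, the long LADs numbered 710, covered 16.6% of the arms, had a neighbour within 10 kb in 31.5%, an Elys cover of 35.2% and an edge-to-centre difference of 5.29 points. With gaps of up to 600 bp filled, the cover of the arms was 33.6%, breaks numbered 1.08 per 10 kb, 50.2% had a neighbour and Elys covered 35.2%. With gaps up to 1500 bp filled, these values were 42.7%, 1.47, 60.2% and 35.9%. With gaps up to 3000 bp they were 48.3%, 1.58, 60.1% and 36.4%, and the edge-to-centre difference was 9.93 points. At a minimum of 10 kb, the LADs covered 43.7% of the arms, 68.8% had a neighbour and Elys covered 36.2%. At 20 kb these were 32.0%, 42.1% and 35.1%. At 30 kb there were 460 LADs, with a cover of 22.3%, 1.23 breaks per 10 kb, 28.0% with a neighbour and an Elys cover of 33.7%. With X added, the cover was 36.8%, breaks numbered 1.38 per 10 kb and Elys covered 36.0%. The Elys cover was 38.4% with gaps between Elys domains filled and 34.9% with Elys domains of at least 600 bp only. A neighbour lay within 5 kb for 37.6% and within 20 kb for 72.9%. With the outermost 1.5 kb as the edge, the difference was 11.2 points.

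The number of genes called in long LADs, 14 as reported, was 6 with DESeq2, 5 with a TPM ratio over 2, and 7 to 10 without 1 library, where 6 to 8 were among the 14. With a replicate block it was 13. The deviations of same-numbered libraries had a correlation of -0.0863 across genes. With 2 libraries a group, this cannot show whether same-numbered libraries were prepared together. Of 64 alternatives for the 8 named genes, 46 kept the call, 18 lost it and 0 changed sign, and 2 libraries a group limit this precision.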
